A study of Mus musculus with 18 samples.

Results

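The insulin-like growth factor (IGF) family was followed here through 10 genes: the ligands Igf1 and Igf2, the receptors Igf1r and Igf2r, and the binding proteins Igfbp2, Igfbp3, Igfbp4, Igfbp5, Igfbp6 and Igfbp7. A probe set, the group of array probes that reads 1 transcript, was a member where the platform annotation gave it exactly 1 gene symbol and that symbol was one of these. This gave 20 of 36701 probe sets, which covered 9 of the 10 genes. Igfbp5 had no such probe set, because the only one that names it also names Tmem119, and it was not analysed here.

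The cells came from pooled retinas of FVB/N mice at postnatal day 8, all homozygous for a transgene in which the Tie2 promoter drives GFP. That promoter is active in endothelial cells and is also known to be active in some blood-lineage cells. Papain-dissociated cells were separated by flow cytometry into a GFP-positive population, labelled endothelial, and a GFP-negative population, labelled as the control, which holds the remaining retinal cells. Amplified RNA of each population was hybridised to 3 arrays of each of the Affymetrix MGU74v2 chips A, B and C, or 18 arrays in all. Nothing in the labels ties the 3 arrays of a population to different animals. The p-values therefore reflect array-to-array spread, which may be technical.

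IGF1 and IGF2 are small secreted ligands that act through the tyrosine kinase receptor encoded by Igf1r, and through it on growth and survival by way of insulin receptor substrates, PI3-kinase and Akt. The receptor encoded by Igf2r, also the cation-independent mannose-6-phosphate receptor, takes up IGF2 for degradation in lysosomes. IGF binding proteins hold the ligands outside the cell and can block or prolong their action. In the developing retina IGF1 is known to be needed for normal vessel growth.

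The binding proteins Igfbp3, Igfbp4 and Igfbp7 and the clearing receptor Igf2r were higher in GFP-positive cells. Both ligands, the signalling receptor Igf1r and the binding protein Igfbp2 were lower. Igfbp6 did not pass the test. By probe set, 4 of the 20 were called higher, 6 were called lower and 10 did not pass at an adjusted p under 0.05 (limma, Benjamini-Hochberg over all probe sets of a chip). No member gene had probe sets called in both directions, which is rare among genes at large (64 of 15964). Of the 8 genes with a call, Igf2r and Igfbp7 had 1 probe set, and each of the other 6 had at least 1 probe set that did not pass. Their calls were at 1 of 4 probe sets for Igf1, 3 of 4 for Igf1r and 1 of 3 for Igfbp4. For Igf2, Igfbp2 and Igfbp3 they were at 1 of 2 each.

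On chip A, 7 of 14 member probe sets were called, against 18.3% of all probe sets of the chip. The 4 called higher compare with 9.09% of the chip and the 3 called lower with 9.25%. On chip B, 3 of 4 were called, all lower, against 20.9% of the chip in either direction, 9.60% higher and 11.3% lower. On chip C, limma called 0 of 2, against 9.28% in either direction, 3.40% higher and 5.88% lower, and 1 of them, an Igf1r probe set, was lower at an unadjusted p under 0.05. The 3 arrays of one population lay wholly above or below those of the other at 9 of 14 member probe sets on chip A, where 37.0% of the chip did so, at 3 of 4 on chip B (42.8%) and at 1 of 2 on chip C (31.8%). The median log2 difference was 0.03 over the 20 member probe sets, beside 0.01, 0.09 and 0.05 over all probe sets of chips A, B and C.

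**Figure D1:**
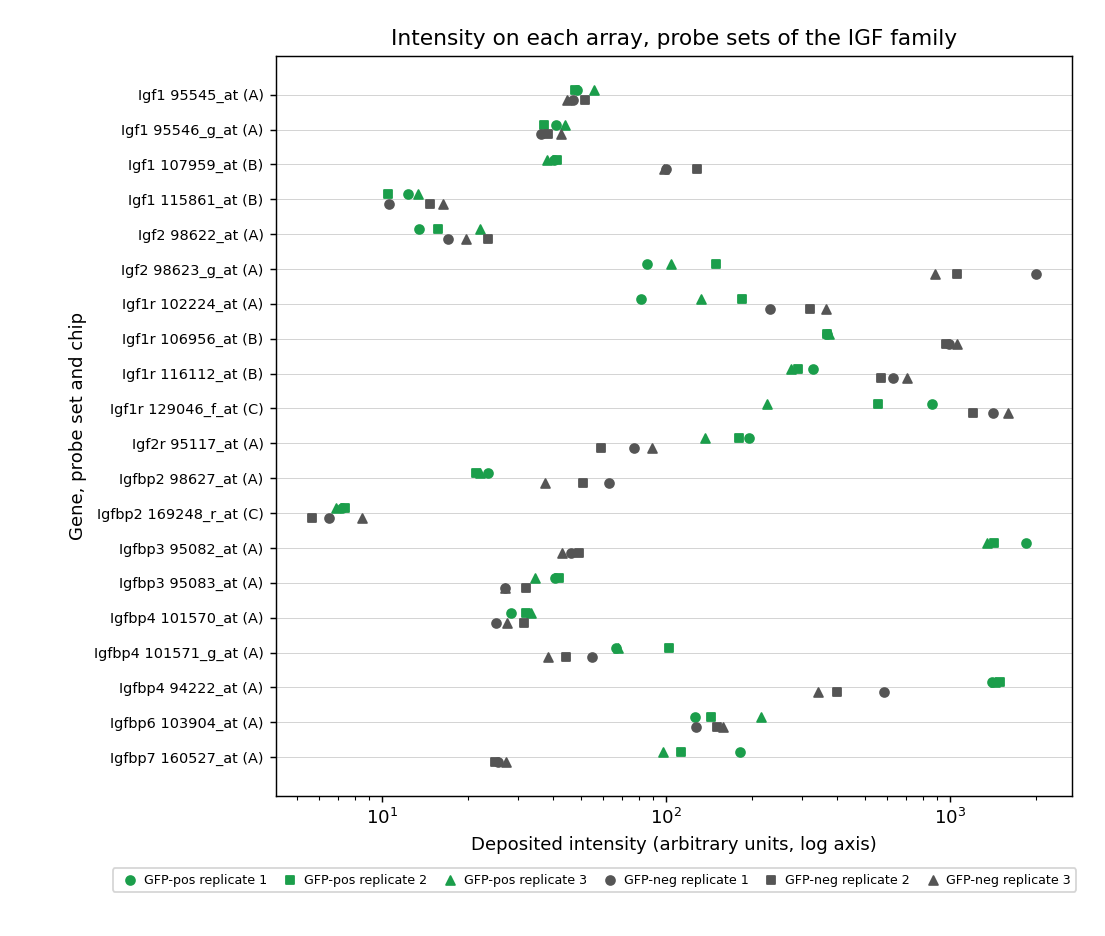
Deposited intensity (arbitrary units, log axis) of each of the 20 member probe sets on every array, with green symbols for GFP-positive and grey symbols for GFP-negative cells and the shape giving the replicate number. The Igfbp3 probe set 95082_at lies between 1342 and 1842 in GFP-positive cells and between 43.0 and 49.1 in GFP-negative cells, and the Igf2 probe set 98623_g_at shows the opposite order.

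GFP-positive replicate 3 stood apart on all 3 chips. Its Spearman rank correlation with the other GFP-positive arrays was 0.911 to 0.929 across probe sets, whereas other pairs within a population reached 0.960 to 0.987. Without it the share of probe sets called was 27.9% on chip A, 25.2% on chip B and 25.1% on chip C, so member results that turned on this array are given with and without it. Array medians ran from 32.5 to 44.5 intensity units over the 3 chips, and the number of arrays limits the precision.

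Markers of the sorted cells separated as labelled. In the endothelial list 7 of 8 genes were higher in GFP-positive cells, and its summed intensity was 8015 to 10867 on GFP-positive against 156 to 183 on GFP-negative arrays. Tek, the gene of Tie2, read 547, 537 and 240.4 against 9.48, 8.58 and 6.62. Lists of other cells also had called genes, and those named next were chosen after their values were seen. In detail, 4 of 6 Müller glia genes were lower (sum 702.5 to 1857 against 3395 to 5527), 2 of 6 photoreceptor genes were lower (320 to 558 against 623 to 1237), and 2 of 8 genes of inner retinal neurons were lower (186 to 325 against 518 to 651). For microglia and other leukocytes 2 of 10 genes were higher, Fcer1g and Laptm5 (674 to 1527 against 478 to 500.0). The melanosome enzyme gene Dct was higher, 1 of 7 in the pigment epithelium list (475 to 616 against 334 to 376). In the fibroblast and meningeal list Lum was higher and Pdgfra lower of 7 genes (328 to 1220.3 against 596 to 1023), and among 5 astrocyte genes Aqp4 was lower (255 to 330.0 against 290.3 to 332). Among 9 pericyte and mural genes limma called 0, and 1 was lower at an unadjusted p under 0.05 (285 to 375 against 330.5 to 390.3). Of 2 red cell genes limma called 0, and 1 was higher at an unadjusted p under 0.05 (142 to 167 against 119 to 134). The upper GFP-positive sums for Müller glia, leukocytes and fibroblasts were each raised by 1 uncalled gene on replicate 3. Glul read 986 there and 136 and 156 on the other GFP-positive arrays. Csf1r read 930 there and 37.3 and 41.2 on the others, and Col1a2 786 there and 44.1 and 42.9. No marker of any list was at 0 on any array, and the part the cells of these lists have in the differences below was not tested. In such sorted populations, fewer cells that express a gene and less of its RNA per cell cannot be told apart.

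The stretch before the transcription start is shown for the 4 members that were higher and, of the members that were lower, for the signalling receptor alone. Each is the 250 bases upstream of the 1 start that the RefSeq promoter table lists (build GRCm38.p6), written 5′ to 3′ on the gene's strand in lower case. The positions are chr11:7213924-7214173 on the minus strand for Igfbp3, chr11:99040994-99041243 on the plus strand for Igfbp4 and chr5:77408046-77408295 on the minus strand for Igfbp7. They are chr17:12769707-12769956 on the minus strand for Igf2r and chr7:67952007-67952256 on the plus strand for Igf1r. For Igfbp3 and Igfbp4 the gene as a whole begins further upstream in the RefSeq gene table, so these windows lie inside its outer bounds. Capitals mark exact matches, on either strand, to the GC box GGGCGG, the TATA box TATAAA and the ETS core CCGGAA.
Igfbp3: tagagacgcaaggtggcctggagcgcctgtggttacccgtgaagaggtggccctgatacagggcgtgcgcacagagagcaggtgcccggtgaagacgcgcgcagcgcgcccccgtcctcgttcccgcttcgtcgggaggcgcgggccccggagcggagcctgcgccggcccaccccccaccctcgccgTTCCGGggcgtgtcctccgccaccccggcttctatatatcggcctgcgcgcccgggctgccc
Igfbp4: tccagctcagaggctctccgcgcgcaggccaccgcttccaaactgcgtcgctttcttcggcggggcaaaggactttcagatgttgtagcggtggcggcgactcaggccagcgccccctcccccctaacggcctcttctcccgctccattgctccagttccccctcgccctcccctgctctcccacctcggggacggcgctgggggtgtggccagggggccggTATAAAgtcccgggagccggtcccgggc
Igfbp7: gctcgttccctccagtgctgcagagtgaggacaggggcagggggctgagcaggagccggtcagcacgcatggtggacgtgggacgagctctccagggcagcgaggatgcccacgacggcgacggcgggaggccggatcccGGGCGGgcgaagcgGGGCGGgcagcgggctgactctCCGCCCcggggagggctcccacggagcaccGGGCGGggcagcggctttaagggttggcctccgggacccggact
Igf2r: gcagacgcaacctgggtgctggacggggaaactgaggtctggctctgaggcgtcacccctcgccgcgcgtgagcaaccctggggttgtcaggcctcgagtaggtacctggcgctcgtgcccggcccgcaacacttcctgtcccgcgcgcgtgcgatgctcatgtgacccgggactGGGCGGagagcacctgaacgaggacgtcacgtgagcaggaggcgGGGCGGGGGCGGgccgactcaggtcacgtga
Igf1r: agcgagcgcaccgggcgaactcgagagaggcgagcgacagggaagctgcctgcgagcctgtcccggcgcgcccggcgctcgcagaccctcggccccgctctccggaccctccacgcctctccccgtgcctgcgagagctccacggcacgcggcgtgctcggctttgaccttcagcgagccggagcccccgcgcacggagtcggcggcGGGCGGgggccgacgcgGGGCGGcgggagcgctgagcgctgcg

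The GC box occurred 4 times in the Igfbp7 window, 3 times in that of Igf2r and 2 times in that of Igf1r, and 32.7% of all 32851 windows of this length in the table held it. The Igfbp3 and Igfbp4 windows had no such match. Igfbp4 had 1 TATA box, present in 12.4% of windows, and Igfbp3 had 1 ETS core, present in 12.0%. The G and C content was 73.2% for Igfbp3, 69.2% for Igfbp4, 74.0% for Igfbp7, 69.2% for Igf2r and 77.6% for Igf1r, against a median of 52.4% over all windows. These 5 windows were thus richer in G and C than the median window, Igf1r included. The other members that were lower are not printed. Their G and C content was 52.8% for Igf1, 47.6% to 68.8% at 4 Igf2 starts, and 67.2% and 56.4% at 2 Igfbp2 starts. The GC box occurred 3 times at the first Igfbp2 start, and the Igf1 window had no match to any of these motifs. At the Igf2 starts the GC box occurred 2, 1, 0 and 0 times. A match describes these letters alone.

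Among the ligands, Igf2 showed the widest gap. Igf2, an imprinted growth factor gene of fetal and early postnatal tissue, was read by probe set 98623_g_at at 85.2, 149 and 104 in GFP-positive and at 1996, 1051 and 883 in GFP-negative cells. Every GFP-negative array was far above every GFP-positive array. Differences are given as log2 of intensity plus 16 in GFP-positive cells less that in GFP-negative cells, and the added 16 shrinks those of dim probe sets. For this one the value was -3.30 (SE 0.34, adjusted p = 0.00169). As a ratio of mean intensities, GFP-negative cells were 11.6-fold higher.

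The other Igf2 probe set, 98622_at, was dim in both populations, at 13.4, 15.7 and 22.0 against 17.0, 23.6 and 19.7. Its arrays overlapped and it did not pass (-0.13, 95% interval -0.44 to 0.17). The Igf2 probe sets thus disagreed in size, and the decrease rests on 1 of them. Pdgfra, a marker in the fibroblast and meningeal list, was lower by a similar amount (-3.45). It was the only gene of that list that was lower. Lum was higher (0.28), and the others did not pass and lay between 0.12 and 0.58. Of the Müller glia genes, 4 of 6 were lower as given above. The part of these cells in the Igf2 value was not tested.

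Igf1, the ligand that acts through Igf1r and is also made by neurons and glia, had 4 probe sets. Probe set 107959_at on chip B read 40.3, 41.2 and 37.8 in GFP-positive and 99.9, 128.5 and 98.4 in GFP-negative cells. The populations were apart without overlap, and the log2 difference was -1.15 (SE 0.12, adjusted p = 0.000829). The other 3 did not pass. Probe sets 95545_at and 95546_g_at on chip A lay between 36.1 and 55.5 on all arrays (0.06 and 0.04), and 115861_at on chip B between 10.5 and 16.3 (-0.09). Their arrays overlapped. On chip A the array medians were 43.3 to 44.5, close to these intensities, and on chip B 40.7 to 44.5, well above that of 115861_at. A fall of Igf1 was therefore seen by 1 of its 4 probe sets.

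Igf1r, the receptor kinase that both ligands activate, read lower at all 4 of its probe sets, 3 of which passed, with no overlap of arrays at any. Probe set 106956_at gave 368, 367 and 374 against 992, 966 and 1055, a log2 difference of -1.40 (SE 0.08, adjusted p = 9.69e-05). Its 3 GFP-positive arrays differed by a few units, far less than the gap. Probe set 116112_at, also on chip B, gave 327, 292 and 275 against 627, 569.5 and 705 (-1.05, SE 0.12, adjusted p = 0.00128). The GFP-negative mean was 2.72-fold and 2.13-fold the GFP-positive mean at these probe sets.

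On chip A, Igf1r probe set 102224_at read 81.5, 185 and 132 against 232, 320.3 and 366. It passed narrowly (-1.15, SE 0.30, adjusted p = 0.0458). Leaving out GFP-positive replicate 1 (adjusted p = 0.0637) or 3 (0.0563), or GFP-negative replicate 1 (0.069), 2 (0.137) or 3 (0.157), ended the call. Over all alternatives its adjusted p ran from 0.0232 to 0.157 and its difference from -1.40 to -0.88. On chip C, probe set 129046_f_at read 863, 554 and 225.5 against 1414, 1199 and 1594. GFP-positive replicate 3 was the lowest of these arrays. The probe set did not pass (-1.51, SE 0.46, adjusted p = 0.11), but passed without that array (-0.99, adjusted p = 0.02, with a range of 0.0139 to 0.289 over all alternatives).

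Igf2r, which removes IGF2 from the cell surface, went the other way. Its 1 probe set, 95117_at, read 196, 181 and 137 in GFP-positive and 76.6, 58.8 and 89.0 in GFP-negative cells. All GFP-positive arrays lay above all GFP-negative arrays. The log2 difference was 1.04 (SE 0.18, 95% interval 0.61 to 1.47, adjusted p = 0.0107), or 2.29-fold by means.

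**Figure D2:**
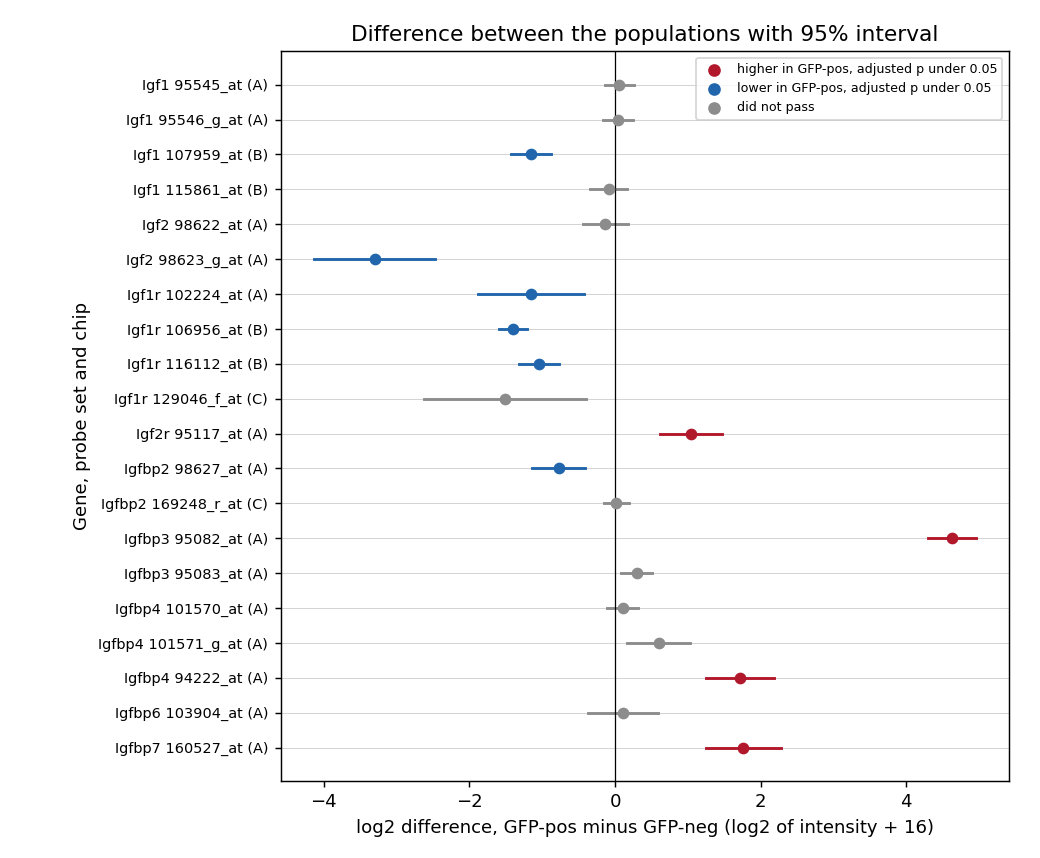
Log2 difference, GFP-positive minus GFP-negative, of each member probe set with its 95% interval from limma. Red points were higher and blue points lower at an adjusted p under 0.05, and grey points did not pass. The 4 Igf1r points lie between -1.51 and -1.05, the Igf2r point at 1.04, and the points of Igfbp3 at 4.63 and 0.30.

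Igfbp3, the main IGF carrier of blood plasma, had the largest difference of the members. Probe set 95082_at read 1842, 1420.0 and 1342 in GFP-positive cells and 46.2, 49.1 and 43.0 in GFP-negative cells. The lowest GFP-positive array was far above the highest GFP-negative one. The log2 difference was 4.63 (SE 0.13, 95% interval 4.30 to 4.95, adjusted p = 2.75e-05), and leaving out single arrays kept it between 4.49 and 4.72. The ratio of means was 33.3-fold.

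The other Igfbp3 probe set, 95083_at, was dim, at 40.5, 41.8 and 34.6 against 27.0, 32.0 and 27.0. Its arrays did not overlap, and it lay in the same direction by a far smaller amount (0.30, SE 0.09, adjusted p = 0.0691). With that population's replicate 3 left out it passed (0.36, adjusted p = 0.0269, with a range of 0.00742 to 0.216 over all alternatives). The probe sets of Igfbp3 therefore gave 33.3-fold and 1.36-fold for the same gene.

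Igfbp4, a binding protein that restrains IGF action until the protease PAPP-A cleaves it, was bright in both populations at probe set 94222_at. It read 1398, 1498 and 1439.7 in GFP-positive and 582, 397 and 341 in GFP-negative cells. The GFP-positive arrays were tight and the GFP-negative arrays more spread, with no overlap. This was a log2 difference of 1.71 (SE 0.19, adjusted p = 0.00235), or 3.29-fold by means.

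Probe set 101571_g_at of Igfbp4 read 66.3, 102 and 67.6 against 54.8, 44.5 and 38.4. It did not overlap but missed the threshold (0.60, SE 0.18, adjusted p = 0.0688). Without GFP-positive replicate 3 it was 0.68 (adjusted p = 0.0497), and over all alternatives its adjusted p ran from 0.0144 to 0.213. The third probe set, 101570_at, lay between 25.2 and 33.3 on all arrays, overlapped and did not pass (0.10, 95% interval -0.10 to 0.31).

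Igfbp7, a secreted protein with low affinity for IGFs that is found in vessel basement membranes, read 182, 112.5 and 97.4 in GFP-positive and 25.5, 25.0 and 27.3 in GFP-negative cells at its 1 probe set, 160527_at. The GFP-negative arrays were all below the chip's median array level and the GFP-positive arrays all above it. This gave a log2 difference of 1.76 (SE 0.21, adjusted p = 0.00287), or 5.04-fold by means.

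Igfbp2, a binding protein abundant in the central nervous system, was the binding protein that was lower. Probe set 98627_at read 23.5, 21.3 and 22.1 against 62.7, 51.0 and 37.3, with no overlap. On the log2 scale the difference was -0.77 (SE 0.15, adjusted p = 0.0167), and the call ended without GFP-positive replicate 2 (adjusted p = 0.059) or GFP-negative replicate 2 (adjusted p = 0.0633), within a range of 0.00799 to 0.0633 over all alternatives. The other Igfbp2 probe set, 169248_r_at on chip C, was between 5.67 and 8.47 on all arrays and did not pass (0.02).

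Igfbp6, which binds IGF2 in preference to IGF1, read 126, 143.5 and 215 in GFP-positive and 127, 151 and 158 in GFP-negative cells at probe set 103904_at. The arrays overlapped, and GFP-positive replicate 3 was the highest. The populations differed by 0.11 on the log2 scale (95% interval -0.37 to 0.59, adjusted p = 0.763), and without that array it was -0.09. A change of the size seen for Igfbp7 lies outside this interval.

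By role, the binding proteins had 3 of 9 probe sets higher and 1 lower, the ligands 0 of 6 higher and 2 lower, and the receptors 1 of 5 higher and 3 lower. Beside these stand 9.09%, 9.60% and 3.40% of all probe sets higher on chips A, B and C, and 9.25%, 11.3% and 5.88% lower, so the 1 lower of 9 binding protein probe sets is near the share of its chips. The counts over all members were 4 higher and 6 lower with all arrays. No single array left out brought either count below 4. Without GFP-positive replicate 3 the member counts were 6 higher and 6 lower. In that fit 27.9%, 25.2% and 25.1% of all probe sets were called on chips A, B and C. The probe sets 95083_at of Igfbp3 and 101571_g_at of Igfbp4 were the ones added, while 102224_at of Igf1r was lost and 129046_f_at of Igf1r gained.

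Other genes of the pathway, from a list of 61 of which 45 were measured, were called about as often as genes at large. A gene was measured by its brightest single-symbol probe set on chip A, or failing that on B, then C, and 5 were higher (11.1%) and 6 lower (13.3%), against 9.42% and 11.2% of 15964 genes. These shares are close to the background, so the genes below are described one by one. The median difference of the list was 0.03, and that of all measured genes 0.04. Without GFP-positive replicate 3 the counts were 7 and 9.

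Grb14, an adaptor that binds and restrains the insulin receptor, led the genes that were higher. It read 176, 152 and 86.4 against 31.3, 27.1 and 27.9 (1.73, SE 0.23, adjusted p = 0.00268). Another Grb14 probe set on chip C, 168409_r_at, was bright and did not pass (-0.63, adjusted p = 0.477), but without GFP-positive replicate 3 it was lower (-1.19, adjusted p = 0.00152). Foxo1, a transcription factor that Akt keeps out of the nucleus, read 130, 154 and 149 against 69.2, 53.6 and 36.7 (1.24, adjusted p = 0.00427). Eif4ebp1, a translation repressor that mTOR phosphorylates, differed by 0.68, and Stc2, a secreted inhibitor of PAPP-A, by 0.47. The growth hormone receptor gene Ghr differed by 0.65, a call that ended without any 1 of the arrays other than GFP-positive replicate 3 (adjusted p = 0.0513 to 0.114).

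Among the genes that were lower, Pdpk1, which phosphorylates Akt, read 54.2, 56.7 and 44.6 against 164, 196 and 202 (-1.59, SE 0.11, adjusted p = 0.000487). Gsk3b, a kinase that Akt inhibits, differed by -1.35 and the PI3-kinase catalytic subunit gene Pik3ca by -0.97. The Pik3ca call ended without GFP-positive replicate 2 (adjusted p = 0.0658) or GFP-negative replicate 1 (0.111) or 3 (0.109). The transcription factor Foxo3 differed by -1.40, opposite in direction to its relative Foxo1, in both cases at 1 probe set. The other Foxo3 probe set, 105551_at (-0.06), and the other Foxo1 probe sets, 106561_at (0.15) and 106989_at (0.27), did not pass, and 106989_at passed without GFP-positive replicate 3 (0.35, adjusted p = 0.0447). Plagl1, an imprinted zinc finger gene, read 13.8, 17.2 and 15.6 against 116, 60.7 and 71.7 (-1.61, adjusted p = 0.00374). Gigyf2, an adaptor that binds the Igf1r partner Grb10, differed by -0.55, and its call ended without any 1 of the arrays other than GFP-positive replicate 3 (adjusted p = 0.0891 to 0.116). Of all probe sets of these genes, 3 of 4 were lower for Gsk3b, 3 of 4 for Plagl1, 2 of 4 for Pik3ca, 2 of 3 for Pdpk1 and 1 of 3 for Gigyf2, while Stc2 and Ghr each had 1 of 2 higher. Some of these further calls ended in fits with 1 array left out. They were Gsk3b 111399_at (adjusted p up to 0.0973) and 111732_at (up to 0.0788), Pdpk1 102063_at (up to 0.102) and Plagl1 163814_r_at (up to 0.0563). The brightest gene that did not pass was Htra1, a secreted protease (0.55, adjusted p = 0.0525).

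Counting any probe set of a gene, 9 of the 45 genes had one that was higher and 9 had one that was lower, and none had both. The shares of all genes were 12.3% and 15.1%, and 64 of all 15964 genes had both. The list had more probe sets per gene (102 for 45 genes) than genes at large (29131 for 15964). More probe sets raise such a count, so these shares are not on a like basis. Without GFP-positive replicate 3 the counts were 12 and 13, in a fit that also called more of all probe sets, as given above. Some genes passed only at a probe set other than the one that measured them, and they were described here after their values were seen. Irs1, the adaptor that docks to the IGF1 receptor and the insulin receptor, read 11.3, 13.0 and 11.3 against 291, 233 and 241 at probe set 110376_at on chip B (-3.27, SE 0.11, adjusted p = 1.75e-05). On chip A its probe set was dim and did not pass (0.07). Insr, the insulin receptor gene, was higher at 106042_at, at 198, 169 and 164 against 83.9, 98.8 and 124 (0.72, adjusted p = 0.0162). Leaving out GFP-negative replicate 2 ended that call (adjusted p = 0.062), and the other 3 Insr probe sets did not pass. One of these, 106044_at, passed without GFP-positive replicate 3 (0.93 with it, adjusted p = 0.134, and 1.32 without it, adjusted p = 0.00687). Pik3r1, the regulatory subunit gene of PI3-kinase, was lower at 163548_at (-1.14) and 129853_at (-1.08). Its probe set 113019_at read 7149.7 on GFP-positive replicate 3 and missed the threshold (-1.20, adjusted p = 0.598). Leaving that array out gave -3.06 (adjusted p = 0.00077). Igfbp1, which lies next to Igfbp3 on chromosome 11 in the RefSeq gene order, was higher at 103896_f_at, at 36.2, 30.5 and 42.7 against 18.8, 20.5 and 17.7 (0.58, adjusted p = 0.013). Its call ended when GFP-negative replicate 1 (adjusted p = 0.0559) or 3 (0.0621) was left out. The remaining genes of this kind were Sos1, Grb10 and Ptpn11. Sos1 was higher at 112449_at (0.91, adjusted p = 0.00593) and Grb10 at 170503_r_at (0.35, adjusted p = 0.0348). Ptpn11 was lower at 164615_f_at (-0.51, adjusted p = 0.0143). The Grb10 call ended in fits with 1 array left out (adjusted p up to 0.137), as did that of Ptpn11 (up to 0.0531).

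**Figure D3:**
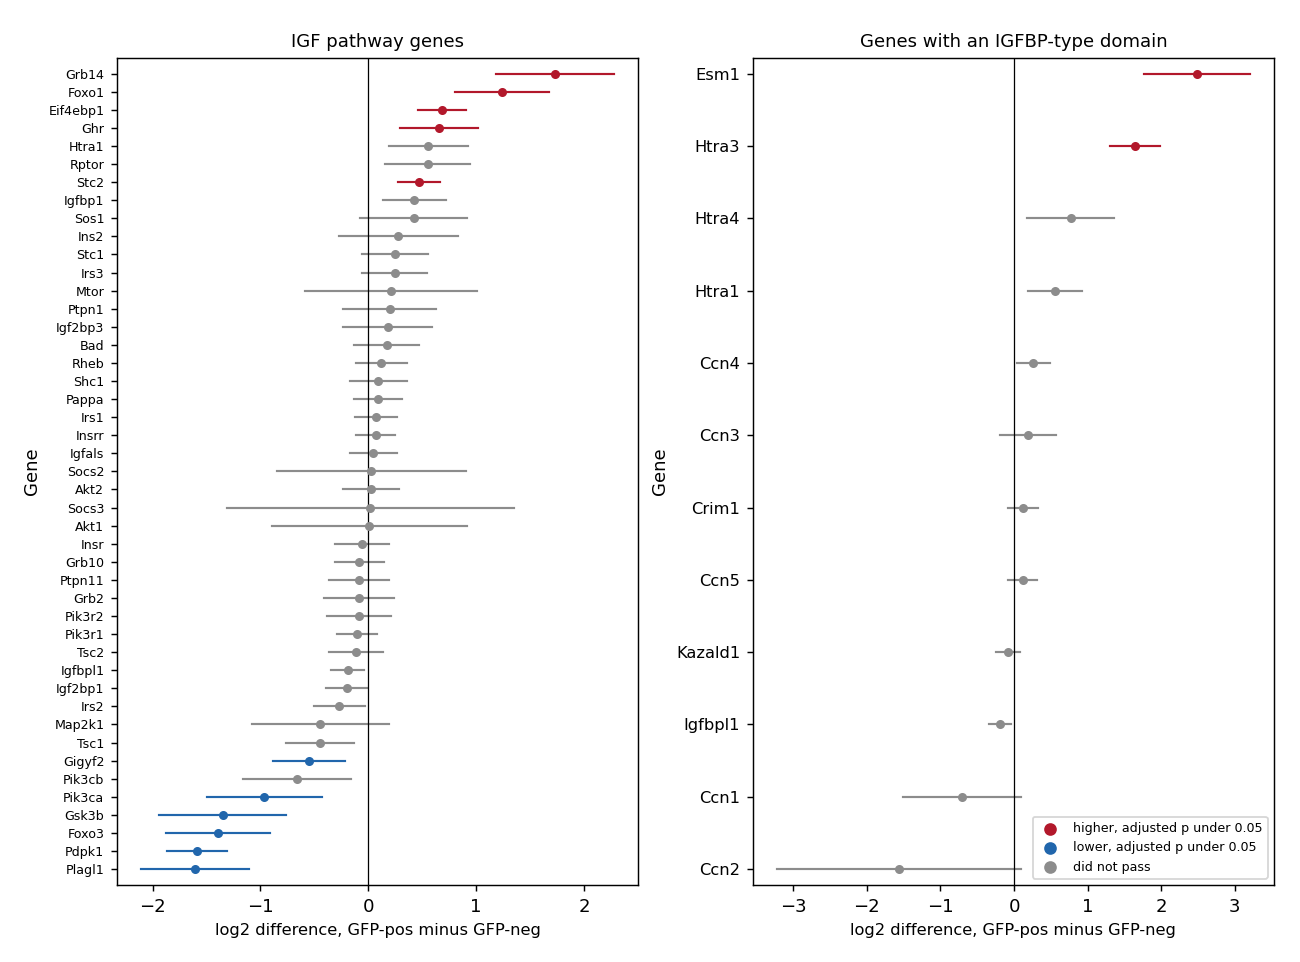
Log2 difference, GFP-positive minus GFP-negative, with its 95% interval for the 45 measured genes of the IGF pathway list (left) and the 12 genes of secreted proteins with an IGFBP-type domain (right), 1 probe set per gene. Red points were higher, blue points lower and grey points did not pass, and Grb14 at 1.73 and Plagl1 at -1.61 end the left panel.

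Genes outside the family whose proteins share the IGFBP-type domain had 2 of 12 measured members higher and 0 lower in limma (5 and 1 at an unadjusted p under 0.05). The higher count is 16.7% of the list, beside 9.42% of all genes, a gap of about 1 gene. For the 0 lower the share of all genes was 11.2%. No share of all genes at an unadjusted p is given here, so those counts cannot be weighed. Htra1 and Igfbpl1 are also in the pathway list. Without GFP-positive replicate 3 the higher count was 4, with Htra4 (1.05) and Ccn4 (0.32) added. That fit also called more of all probe sets, as given above. Their median difference was 0.15. Esm1, endocan, a proteoglycan of endothelial tip cells, read 164.5, 139 and 61.8 against 6.33, 7.54 and 7.47 (2.49, SE 0.30, adjusted p = 0.00185). Htra3, a secreted protease related to Htra1, read 113.5, 111 and 77.0 against 21.3, 20.9 and 20.6 (1.64, SE 0.14, adjusted p = 0.000869). Its other probe sets read far smaller differences: 113574_at was higher by 0.42 (adjusted p = 0.0358), a call that ended in 5 of 6 fits with 1 array left out (adjusted p = 0.0611 to 0.108), and 113631_at did not pass (-0.13). Htra1 was again the brightest gene that did not pass.

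Probe sets whose pattern over the 6 arrays of chip A came closest to Igfbp3 and Igf2 were ranked by Euclidean distance of centred log2 values among 10831 probe sets of other genes. For Igfbp3 they were Rflnb at a distance of 0.398, She at 0.416 and Emp1 at 0.472, with differences of 4.71, 4.38 and 4.40. For Igf2 they were Pdgfra at 0.703, Crym at 0.708 and Sowaha at 0.736, with differences of -3.45, -3.70 and -3.17. Pdgfra is the PDGF receptor gene of retinal astrocytes and of fibroblasts. The ranking describes 6 arrays of 2 populations and carries no test.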

How the data were processed

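The authors deposited 1 table per chip, whose values are probe set intensities on a linear scale. Per the labels' protocols, RNA of the sorted cells was isolated, amplified and labelled with biotin. The authors' probe summary, background correction and normalization are not given in the sources used here; another choice could move any difference. Array medians within a chip were close, so the deposited intensities were kept as scaled. Detection calls were not used here.

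Gene symbols came from the platform annotation, and probe sets with several symbols named no gene. On chips A, B and C, 10833, 10581 and 7717 of 12422, 12411 and 11868 probe sets had 1 symbol. Each chip was fitted alone with limma 3.58.1 in R 4.3.3 (lmFit and eBayes, two-sided) on log2 of intensity plus 16, with Benjamini-Hochberg adjustment over the chip and a threshold of 0.05. Groups and replicate numbers came from the sample titles. No replicate block was used. Tested on simulated data, the fit found 69%, 67% and 83% of probe sets changed by a log2 of 1 on chips A, B and C. Fewer probe sets were changed there than were called in the data, and no simulated array stood apart. These shares therefore do not carry over directly to the data.

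The members and lists were chosen with earlier results of these data known. The text names every member probe set, up to 6 called genes per direction of each list with the brightest uncalled one, and for members that differed by at least 2 the 3 most similar probe sets. Alternatives covered normalization, pseudocount, dim and cross-matching probe sets, variance model, array weights, replicate block, adjustment, threshold, fold minimum and each array left out. Figures were drawn with matplotlib 3.10.9.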

Additional observations from a re-analysis of the deposited data

How the results depend on the processing

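Of the 10 called member probe sets, 8 kept an adjusted p under 0.05 in every alternative fit that held them, and none changed sign. The exceptions were Igf1r 102224_at and Igfbp2 98627_at. Member counts ran from 4 to 6 higher and from 4 to 6 lower when each array was left out. In those fits the share of all probe sets called also moved. It ran from 10.6% to 27.9% on chip A, 13.3% to 25.2% on chip B and 4.70% to 25.1% on chip C. Leaving out probe sets whose name suffix marks relaxed probe choice removes Igf2 98623_g_at, the called Igf2 probe set. Uncalled values that changed sign were Igfbp2 169248_r_at at -0.0071 with median-centred arrays (-0.0187 to 0.0690 leaving out arrays), and with array weights Igf1 95546_g_at at -0.0363 (-0.0004 to 0.0880 leaving out arrays) and Igfbp6 at -0.0403 (-0.0937 to 0.2566 leaving out arrays).

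The IGF pathway counts of 5 higher and 6 lower were 10 and 10 with array weights. That setting also raised the share of all probe sets called to 32.2%, 34.0% and 33.1% on chips A, B and C. At an adjusted p under 0.01 the counts were 3 and 3, where 9.28%, 10.5% and 3.86% of all probe sets were called. The higher count was also 3 among brighter probe sets only, of which 27.1%, 30.2% and 14.2% were called. At a minimum of 2-fold it was 2, where the shares of all probe sets were 8.82%, 8.73% and 4.42%. Leaving out arrays gave 4 to 7 higher and 4 to 9 lower, beside the shares of all probe sets given above for those fits. The count of 2 related secreted proteins was 1 among brighter probe sets, 5 with array weights and 2 to 4 leaving out arrays. The shares of all probe sets given above for each setting stand beside these counts too. The cause was not tested.

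With the replicate number as a block, the pathway counts were 3 higher and 4 lower, and the member counts were 4 higher and 6 lower. That fit called 13.7%, 16.9% and 5.40% of all probe sets on chips A, B and C, against 18.3%, 20.9% and 9.28% without a block. Deviations of same-numbered arrays correlated between -0.368 and 0.292, and those of differently numbered arrays between -0.406 and 0.445. With 3 arrays per population these values cannot show whether samples were paired. Detection over background was not assessed, so a dim probe set that did not pass does not show equal levels.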
